A study of Homo sapiens with 2 samples.

Results

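The IL-1 and IL-6 families of cytokines were followed through 10 genes in 2 gastric cancer (GC) cell lines after knockdown of SET7/9, a lysine methyltransferase encoded by SETD7. The genes were the IL-1 family ligands IL1A, IL1B and IL18, the receptor antagonist IL1RN, the IL-6 family ligands IL6, IL11 and LIF, the receptors IL6R and OSMR, and the feedback inhibitor SOCS3. They were chosen by name from 25940 gene names, with earlier results of the same arrays known, and every gene probe carrying one of these names was used, which gave 13 of 34123 probes. IL1RN, IL6 and LIF had 2 probes each and the other 7 genes had 1. The cell lines were MKN74 and MKN45, grown in RPMI1640 medium with fetal bovine serum and electroporated either with siRNA against SET7/9 or with a negative control siRNA, at 50 nM in each case, and RNA was taken after 48 hrs. Each cell line had 1 two-colour Agilent array, on which the cells with SET7/9 siRNA were labelled with Cy5 and the negative control cells with Cy3. The dyes were not swapped, no array was repeated, and both arrays lay on the same slide. The sources used here do not say which SET7/9 siRNA gave the RNA on the arrays. With 1 array per cell line no p-value was computed, and every difference below is a description of these arrays.

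IL-1α and IL-1β bind the receptor IL1R1 together with IL1RAP and signal through MyD88 and the IRAK kinases to NF-κB, whereas IL1RN occupies the same receptor without signalling. Cytokines of the IL-6 family pair a ligand-specific receptor, such as IL6R, or OSMR for oncostatin M, with the shared subunit gp130 (IL6ST) and activate JAK kinases and STAT3, which induces its own inhibitor SOCS3. In the stomach, IL-1β is known as a pro-inflammatory cytokine that also suppresses acid secretion, and IL-11 as a gp130 ligand that drives STAT3 in gastric epithelium.

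The knockdown and the cell type were checked first. In MKN74 one SETD7 probe had a log2 ratio of SET7/9 siRNA to negative control of -2.03 (error 0.28), and in MKN45 of -1.95 (error 0.28), while the other SETD7 probe stood at 0.24 (error 0.22) and -0.23 (error 0.21). The error in parentheses, here and below, is that of the scanner software's model for a spot and is not a replicate SD. All 6 epithelial markers examined (CDH1, CLDN4, EPCAM, KRT8, KRT18 and KRT19) were well above background in the control cells of both lines. Of 6 leukocyte markers, CD14 and CD68 were above background in MKN74, and CD14, CD68 and PTPRC in MKN45, with a summed Cy3 signal of 352.3 and 194.3. Of 5 fibroblast markers none was above background in MKN74 and LUM was in MKN45, with summed signals of 18.9 and 32.1, and of 3 endothelial markers CDH5 was above background in MKN74, and CDH5 and PECAM1 in MKN45, with summed signals of 57.2 and 53.5. In whole cultures, fewer cells making a transcript and less of it per cell cannot be told apart.

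The promoters of IL11, IL1A and IL1B are shown because IL11 and IL1A were the members past the cutoff after knockdown, and IL1B is the ligand next to IL1A that was not. Each window runs from 250 bases before to 50 bases after a transcription start of RefSeq on the GRCh38.p14 build, whereas probe positions below are on GRCh37. The sequences are written 5′ to 3′ on the strand of the gene. Capitals mark matches, on either strand, to an AP-1 motif (TGANTCA), a STAT motif (TTCNNNGAA), a C/EBP motif (TTGCNNAA) or a TATA box (TATAAA).
IL11, chr19:55370414-55370713, minus strand: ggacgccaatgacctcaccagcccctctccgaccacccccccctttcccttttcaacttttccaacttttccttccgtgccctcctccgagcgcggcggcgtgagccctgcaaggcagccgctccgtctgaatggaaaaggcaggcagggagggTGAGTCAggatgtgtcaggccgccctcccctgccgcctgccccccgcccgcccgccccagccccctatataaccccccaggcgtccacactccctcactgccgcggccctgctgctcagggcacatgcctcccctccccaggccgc
IL1A, chr2:112784444-112784743, minus strand, the upstream of 2 listed starts: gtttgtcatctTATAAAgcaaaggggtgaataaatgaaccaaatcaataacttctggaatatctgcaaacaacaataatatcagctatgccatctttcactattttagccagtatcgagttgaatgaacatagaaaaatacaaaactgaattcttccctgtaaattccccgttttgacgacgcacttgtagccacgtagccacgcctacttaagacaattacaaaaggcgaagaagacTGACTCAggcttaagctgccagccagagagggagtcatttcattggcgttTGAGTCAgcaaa
IL1B, chr2:112836730-112837029, minus strand: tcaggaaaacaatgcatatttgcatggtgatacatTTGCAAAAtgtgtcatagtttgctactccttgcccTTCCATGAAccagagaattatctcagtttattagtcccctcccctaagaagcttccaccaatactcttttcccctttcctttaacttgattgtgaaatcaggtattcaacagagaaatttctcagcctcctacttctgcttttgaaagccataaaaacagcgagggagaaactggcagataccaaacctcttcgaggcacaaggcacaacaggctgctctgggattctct

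The IL11 window held 1 AP-1 match, which began 96 bases before the start. The IL1A window held 2 AP-1 matches, beginning 12 bases before and at base 39 after the start, and a TATA match 239 bases before it. The IL1B window held no AP-1 match, and its capitals are a C/EBP match 215 bases and a STAT match 180 bases before the start. Windows were listed for 8 of the 10 members, not for IL18 or LIF, and IL1A, IL1RN and SOCS3 had more than 1. AP-1 matches were found for 5 of the 8 genes (IL1A, IL1RN, IL11, IL6R and OSMR), against 7.71% of 35116 promoter windows of the same length. STAT matches were found for IL1B alone, against 7.66% of the windows, and C/EBP matches for IL1B, IL6 and OSMR, against 10.5%. TATA matches were found for IL1A and IL1RN, against 11.5%. A gene was counted if any of its windows matched, with 12 windows for the 8 genes, whereas the shares are of single windows. A match is a run of letters and was not tested as a binding site.

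**Figure D1:**
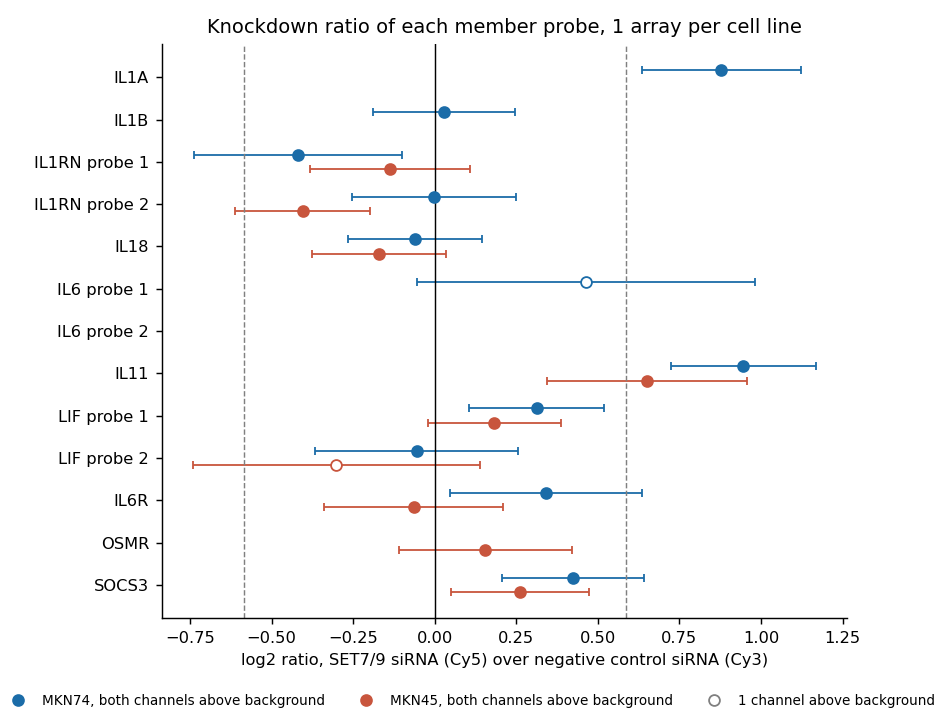
Log2 ratio of SET7/9 siRNA (Cy5) to negative control siRNA (Cy3) at each of the 13 member probes on the 1 array of each cell line, with the scanner software's error as bars and the 1.5-fold cutoff (0.585) dashed. Open circles had 1 channel well above background, and probes with neither are not drawn; IL11 is the member to the right of the cutoff in both lines, and IL1A in MKN74.

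Of the member probes, 11 (9 genes) had at least 1 channel well above background in MKN74 and 9 (7 genes) in MKN45. IL11 and IL1A were at least 1.5-fold higher with SET7/9 siRNA in MKN74 and IL11 in MKN45, and no member was 1.5-fold lower in either line. That is 2 of 11 probes in MKN74, where 3.78% of all probes kept on the same terms were higher and 1.76% lower, and 1 of 9 in MKN45, where 4.81% were higher and 1.97% lower. With both channels well above background the member probes numbered 10 and 8, and the same genes were past the cutoff, where MKN74 had 0.64% of all probes higher and 1.45% lower, and MKN45 0.814% and 1.62%. In both lines together IL11 was higher and no member lower, against 0.75% and 0.373% of all probes with at least 1 channel above background, and 0.0518% and 0.207% with both. The 10 member probes of MKN74 had a median log2 ratio of 0.17 against -0.0066 over all probes, and the 8 of MKN45 had 0.045 against -0.0011. Since the genes were chosen with these ratios known, the counts and medians describe the members and are no evidence about the pathway.

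IL1A, an alarmin held in epithelial cells and released on damage, was measured by a probe printed 10 times (GRCh37, chr2:113532362-113532421). In MKN74 its processed signal ranged over the spots from 36.0 to 54.3 in negative control cells (median 44.8) and from 77.3 to 84.7 in SET7/9 siRNA cells (median 81.5). No spot of one channel overlapped those of the other, and the log2 ratio lay above 0 on 10 of 10 spots. The mean log2 ratio was 0.88 (error 0.24), with an SD of 0.20 over spots of the same array, which holds no variation between cultures. With background correction by normexp, which here added an offset of 50 to both channels, and loess dye normalization it was 0.45, below the cutoff. The offset exceeds the median control signal of this probe, and a constant added to both channels draws a ratio towards 0. The part of the offset in the change was not tested. Without dye normalization, a setting that has no such offset and was chosen after seeing the data, the ratio was 0.52, also below the cutoff. In MKN45 neither channel was well above background on any of the 9 spots used, where both signals were surrogate values set by the software, so that the array gives no ratio there.

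IL1B, the ligand that needs cleavage before release, did not follow IL1A in MKN74. Its probe (chr2:113587429-113587488, 10 spots) gave 79.6 to 97.8 in control cells (median 88.4) and 85.6 to 93.1 with SET7/9 siRNA (median 91.6). The channels overlapped, the log2 ratio was above 0 on 6 of 10 spots, and its mean was 0.029 (error 0.22, SD over spots 0.098). In MKN45 the mean signals were 4.41 and 8.10, with Cy3 above background on 0 and Cy5 on 1 of 10 spots. IL1B was therefore not counted in MKN45, although its log2 ratio of 0.90 (error 1.04) would pass the cutoff without the filter.

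IL18, an IL-1 family ligand that induces interferon-γ in lymphocytes, was well above background in all 4 channels (chr11:112020811-112020870, 10 spots). Its control signal ranged from 289.8 to 343.4 in MKN74 (median 318.9) and from 252.5 to 302.2 in MKN45 (median 273.1). With SET7/9 siRNA it ranged from 284.2 to 318.5 (median 310.3) and from 227.8 to 263.9 (median 245.7). The channels overlapped in both lines. The log2 ratio was -0.061 (error 0.21, SD over spots 0.048) in MKN74, above 0 on 1 of 10 spots, and -0.17 (error 0.21, SD 0.089) in MKN45, above 0 on 0 of 10.

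IL1RN, which blocks the IL-1 receptor, had 2 probes on the same listed transcript, and neither passed the cutoff in either line. At the first (chr2:113890639-113890698) the signal went from 28.3 in control cells to 21.1 with SET7/9 siRNA in MKN74 and from 44.2 to 40.2 in MKN45, log2 ratios of -0.42 (error 0.32) and -0.14 (error 0.24). At the second (chr2:113891531-113891590) it was 40.3 in both channels of MKN74 and went from 1040 to 785.7 in MKN45, log2 ratios of -0.0020 (error 0.25) and -0.41 (error 0.21). All these ratios were below 0, but the lower value came from a different probe in each line and the probes are not independent measurements.

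**Figure D2:**
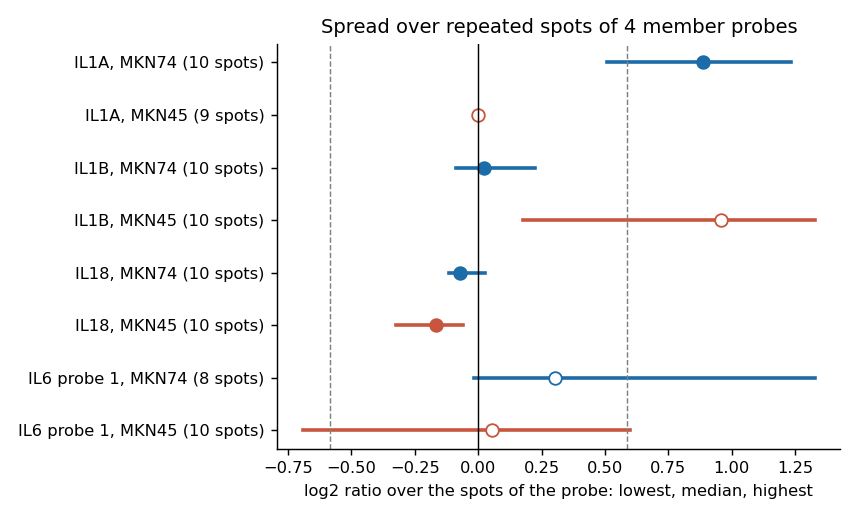
Lowest, median and highest log2 ratio over the spots of the 4 member probes printed 10 times, in MKN74 (blue) and MKN45 (red), with outlier spots left out and the 1.5-fold cutoff dashed. Filled circles had both channels well above background on most spots; all IL1A spots in MKN74 lie right of 0, while those of IL1B and IL18 in MKN74 lie on both sides of it.

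Among the IL-6 family ligands, IL11 gave the highest ratio of all member probes in each cell line with both channels above background. Its single spot (chr19:55875788-55875847) read 263.3 in control cells and 507.0 with SET7/9 siRNA in MKN74, and 20.4 and 32.0 in MKN45. The log2 ratios were 0.95 (error 0.22) and 0.65 (error 0.31), and in MKN45 the distance to the cutoff was smaller than the error. The MKN74 value held under another processing, at 0.83 with normexp and loess and 0.96 without dye normalization. In MKN45 it fell to 0.12 with normexp and loess and turned to -0.14 without dye normalization, a setting chosen after seeing the data. In that setting the 3394 probes of MKN45 with Cy3 signal under 50 and both channels above background had a median of -0.44, against 0.028 in the main processing. With normexp and loess the median of the same probes was 0.0023. This median was already small in the main processing, so it cannot show whether normexp and loess shrank the ratios of dim probes. The normexp offset of 50 exceeds both IL11 signals in MKN45. A constant added to both channels makes a ratio smaller in size, and its part in the fall was not tested. Without dye normalization IL11 fell by more than the median of the dim probes, and the cause was not tested.

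IL6, the family's founding member, was at the edge of detection or below it. Its first probe (chr7:22771207-22771266) had a mean signal of 11.2 in control cells and 14.9 with SET7/9 siRNA in MKN74, and Cy5 was above background on 8 of 8 spots used and Cy3 on none. The log2 ratio of 0.46 (error 0.52, SD over spots 0.47) thus has a control signal within the background, and no lower bound above 1-fold could be given. In MKN45 it was not above background in either channel, and the second IL6 probe (chr7:22769363-22769422), designed to another transcript, was not above background in any of the 4 channels.

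LIF, a gp130 ligand that acts with the receptor LIFR, had a bright and a dim probe. In MKN74 the first (chr22:30636713-30636772) read 1839 in control cells and 2284 with SET7/9 siRNA, and in MKN45 it read 647.6 and 735.1, with log2 ratios of 0.31 (error 0.21) and 0.18 (error 0.20). Both were positive and under the cutoff. The second (chr22:30639661-30639720) went from 25.6 to 24.6 in MKN74, a log2 ratio of -0.056 (error 0.31), and in MKN45 from 15.7, not well above background, to 12.7, a log2 ratio of -0.30 (error 0.44). The probes thus differed in sign in both lines, and of the 4 ratios only that of the bright probe in MKN74 lay further from 0 than its own error.

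The receptors stayed within the cutoff. IL6R, the receptor through which IL-6 reaches gp130, was measured at chr1:154440037-154440096 and read 25.1 in control cells and 31.8 with SET7/9 siRNA in MKN74, and 31.3 and 29.9 in MKN45. The log2 ratio was 0.34 (error 0.29) in the first line and -0.065 (error 0.27) in the second, opposite signs which no other member probe measured in both channels of both lines showed. OSMR, which joins gp130 in the receptor of oncostatin M, was not above background in MKN74 and read 32.8 and 36.5 in MKN45 (chr5:38933387-38933446), a log2 ratio of 0.16 (error 0.26).

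SOCS3, the STAT3-induced inhibitor that closes the loop, was positive in both lines without reaching the cutoff. Its probe (chr17:76353127-76353186) read 98.05 in control cells and 131.5 with SET7/9 siRNA in MKN74, and 121.4 and 145.5 in MKN45. The log2 ratios were 0.42 (error 0.22) and 0.26 (error 0.21), each larger than its error. With normexp and loess they were 0.38 and 0.24, and without dye normalization 0.40 and 0.30.

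**Figure D3:**
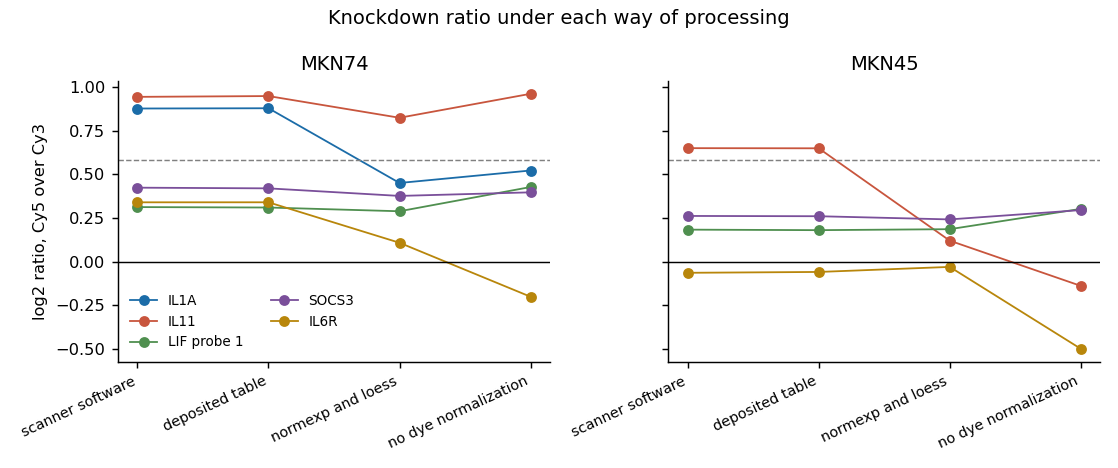
Log2 ratio of SET7/9 siRNA to negative control siRNA for 5 member probes under 4 ways of processing, with MKN74 on the left and MKN45 on the right and the 1.5-fold cutoff dashed. SOCS3 and LIF probe 1 stay between 0 and the cutoff in both lines, whereas IL11 falls from 0.65 to -0.14 in MKN45 and IL6R from 0.34 to -0.20 in MKN74.

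Across both cell lines, 7 member probes (6 genes) were measured in both channels of both. Of these, IL11, LIF probe 1 and SOCS3 were above 0 in both lines, as were 32.1% of all 17362 such probes. Both IL1RN probes and IL18 were below 0 in both, and IL6R had opposite signs. The shares of all probes below 0 in both lines or with opposite signs were not computed, so these counts do not set the members apart. Within MKN74, 6 of 10 ratios were above 0, where 48.4% of all probes were, and within MKN45 4 of 8, where 49.7% were. A probe's dye effect would be shared by both arrays, and its part in these ratios was not tested.

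Differences past 1.5-fold were more common between the cell lines than between the siRNAs, among the members and over all probes alike. To compare the lines, the signals were scaled across arrays (Aquantile) and are given as log2 values of a probe in MKN45 minus MKN74. In negative control cells 5 of 11 probes were at least 1.5-fold lower in MKN45 (IL1A, IL1B, IL11 and both LIF probes) and 2 were higher (the second IL1RN probe and OSMR), where 32.0% of all probes were lower and 30.7% higher. OSMR was counted by its measured value, and its lower bound was under 1.5-fold. For 4 of the 11 probes the control signal was above background in 1 line only, as for 19.4% of all probes. With Cy3 above background in both lines, IL11 and the first LIF probe were lower and the second IL1RN probe higher, where 32.5% and 23.9% of all probes were.

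IL1A and IL1B were well above background in MKN74 alone. Their control signal was at least 4.08-fold and 7.90-fold lower in MKN45, and in SET7/9 siRNA cells at least 13.4-fold and 14.4-fold lower. These are lower bounds, because the MKN45 signal was raised, where it lay lower, to that of the dimmest detected probe of its channel, and they are open to dye bias. The bounds were computed for this scaling only. On the log2 scale the measured control differences of IL1A and IL1B were -3.91 and -4.53 with scaling by quantiles of the Cy3 channel (Gquantile). They were -3.44 and -4.09 with 75th percentile scaling. With normexp and its offset of 50, loess and Aquantile they shrank to -0.98 and -1.30, smaller in size than these bounds. The part of the offset was not tested. IL6 went the same way, with the first probe at least 2.81-fold lower in MKN45 in SET7/9 siRNA cells and above background in neither line in control cells.

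IL11 stood at 7.95 in control cells and 8.90 in SET7/9 siRNA cells of MKN74, and at 4.01 and 4.66 in MKN45. Both channels of MKN74 lay above both of MKN45, and IL11 was 15.4-fold lower in MKN45 in control cells and 18.9-fold in SET7/9 siRNA cells. With normexp, loess and Aquantile the control difference was -1.94 in place of -3.94. LIF had the same order of the 4 channels at its first probe, 2.31-fold lower in MKN45 in control cells and 2.53-fold in SET7/9 siRNA cells. At its second probe LIF was at least 2.58-fold lower in control cells and 3.11-fold in SET7/9 siRNA cells, but its control difference was -0.41 on the log2 scale both with 75th percentile scaling and with normexp, loess and Aquantile, within 1.5-fold.

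IL1RN and OSMR differed in the other direction. The second IL1RN probe was 24.3-fold higher in MKN45 than in MKN74 in control cells and 18.4-fold higher in SET7/9 siRNA cells. Its control difference of 4.60 on the log2 scale was 3.47 with normexp, loess and Aquantile and 4.98 with 75th percentile scaling. The first IL1RN probe, 5′ of it on the same listed transcript, differed by 0.086 in control cells and 0.37 in SET7/9 siRNA cells on the log2 scale, against 4.60 and 4.20 at the second, so the probes of 1 gene disagreed about the cell lines. OSMR was above background in MKN45 alone and at least 1.20-fold higher there in control cells and at least 2.30-fold in SET7/9 siRNA cells.

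At IL18, IL6R and SOCS3 the control cells of the lines differed by less than 1.5-fold. Their control differences were -0.092, -0.28 and 0.19 on the log2 scale, and in SET7/9 siRNA cells -0.20, -0.69 and 0.031, where IL6R was past the cutoff at 1.61-fold. With scaling to the 75th percentile, which moved the median difference of all probes from -0.031 to 0.26, IL18 and IL6R changed sign to 0.087 and 0.61, and SOCS3 rose to 0.60. Scaled by normexp, loess and Aquantile, the first IL1RN probe turned to -0.078. The order of the cell lines was thus not settled for IL18, IL6R and the first IL1RN probe. SOCS3 stayed above 0, at 0.16 with Gquantile and 0.17 with normexp, loess and Aquantile.

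**Figure D4:**
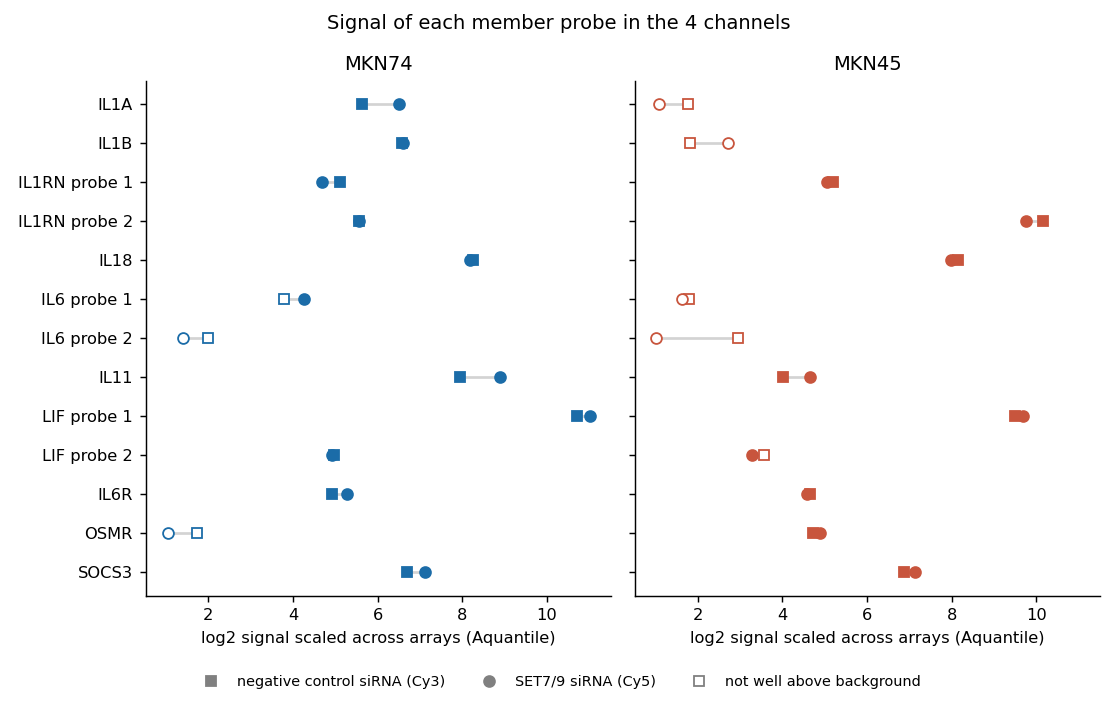
Scaled log2 signal of each member probe in negative control cells (squares) and SET7/9 siRNA cells (circles) of MKN74 (left) and MKN45 (right), with open symbols for signals not well above background. Signals may be compared along a row and not between probes; IL1A, IL1B and IL11 sit further left in MKN45, and the second IL1RN probe further right.

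**Figure D5:**
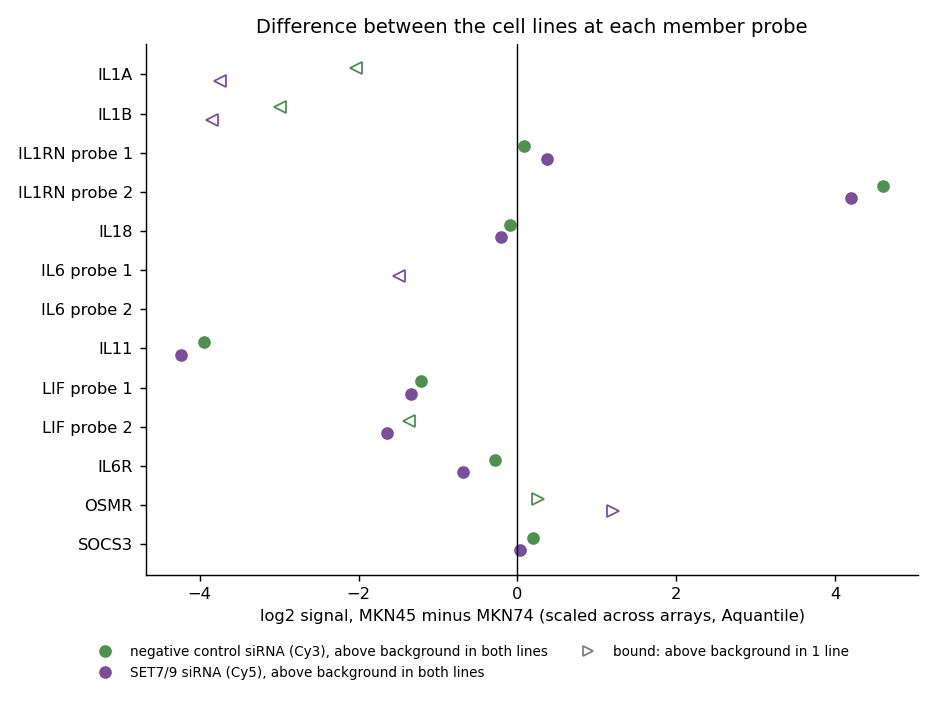
Difference in scaled log2 signal, MKN45 minus MKN74, at each member probe in negative control cells (green) and SET7/9 siRNA cells (purple), where triangles are lower bounds for probes above background in 1 line only. For every member probe drawn in both colours, the 2 lie on the same side of 0.

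The 3 probes whose 4-channel pattern lay nearest to that of IL11, by Euclidean distance of levels centred on each probe's mean over 17362 probes, belonged to ABAT (distance 0.32), ACOXL (0.46) and WBSCR27 (0.51). ABAT had log2 ratios of 0.68 in MKN74 and 0.38 in MKN45 and a control difference of -4.10, ACOXL 0.49, 0.50 and -3.78, and WBSCR27 0.27, 0.44 and -4.25. The distance rests on 4 channels of 2 arrays and is dominated by the difference between the lines.

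The other genes of the pathways were listed with earlier results known, and their calls with both channels above background stand against the shares of all probes given above (0.64% higher and 1.45% lower in MKN74, 0.814% and 1.62% in MKN45). In the list of 12 receptors and antagonists of the IL-1 family, 6 genes had such a probe in MKN74 and 8 in MKN45. IL36RN, the antagonist of the IL-36 receptor, was lower in MKN74 at -0.63 (error 0.21) and not above background in MKN45. IL18RAP, a subunit of the IL-18 receptor, was higher in MKN45 at 0.71 (error 0.22) and read 0.48 (error 0.22) in MKN74, while its other probe was not above background. Among 14 genes of the IL-1 signal relay, 13 were measured in each line, and IRAK2, a kinase downstream of MyD88, was higher in MKN74 at 0.61 (error 0.23) and read 0.36 (error 0.21) in MKN45. Among 10 genes of IL-1 processing, CASP1, the protease that cleaves IL-1β and IL-18, was lower in MKN74 at -0.81 (error 0.39) and not above background in MKN45.

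On the IL-6 side, 6 of 11 ligand genes were measured in both channels in each line. Beside IL11, EBI3, a subunit of IL-27 and IL-35, was higher in MKN45 at 0.78 (error 0.27) and read 0.16 (error 0.22) in MKN74. Its MKN45 signals were 29.6 in control cells and 50.6 with SET7/9 siRNA. None of the 8 receptor genes, of which 4 (9 probes) were measured in MKN74 and 5 (11 probes) in MKN45, passed the cutoff with both channels above background, which these small shares of all probes do not set apart. With 1 channel above background LIFR, the LIF receptor, was the receptor gene that passed it, in both lines with opposite signs. In MKN74 its log2 ratio was -3.49 (error 0.77), a bound of at least 2.35-fold lower. In MKN45 it was 0.61 (error 0.40), a bound of at least 1.25-fold higher. Each line had 15 probes of the 12 genes of the JAK-STAT3 relay and feedback in both channels, and none passed. Of 15 STAT3 target genes, all measured in both lines, ICAM1, an adhesion molecule that NF-κB also induces, was higher in MKN45 at 0.68 (error 0.29) and read -0.057 (error 0.20) in MKN74. Its MKN45 signals were dim, at 25.3 in control cells and 39.9 with SET7/9 siRNA. The medians of the target list were -0.057 and -0.033, and those of the relay list 0.00038 and 0.022. The ratios past the cutoff of IL36RN, IL18RAP, IRAK2, CASP1, EBI3 and ICAM1 each lay nearer to it than their error. No other processing is given for these genes.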

How the data were processed

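Total RNA of MKN74 and MKN45 cells was measured on 1 two-colour array per cell line. The authors deposited output of Agilent Feature Extraction 10.7.3.1: for each channel the linear intensity of every spot, the log10 ratio of Cy5 to Cy3 and its error, and an error-model p-value. Its steps were background subtraction with spatial detrending, surrogate values for dim signals, and linear and LOWESS dye normalization, so ratios of dim probes depend on the background. The authors also deposited log2 ratios in a table with 2 decimals; 99.6% and 99.4% of its values lay within 0.01 of the scanner ratios (column medians -0.01 and 0.0), which settles its scale and direction. Probe positions are on GRCh37.

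Here ratios were converted to log2, control spots and outliers (549 and 534) were dropped, and spots of a probe were averaged. Well above background, the software's own flag, was required of at least 1 channel on at least 50% of a probe's spots. This kept 20674 and 22830 probes. Levels were compared between lines after Aquantile scaling of log2 processed signals (limma 3.58.1, R 4.3.3), and other steps used Python 3.11.15. Signals of different probes were not compared.

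Members and gene lists were chosen with earlier results of these data known. Genes named by rule beside the members and the cell type markers are SETD7, list genes past 1.5-fold with both channels above background in either line, and the 3 genes nearest to a member past the cutoff in both lines. List genes past it with 1 channel above background, and the genes of the other observations, were named after their values were seen. The gene symbol matched the RefSeq table by accession for 12 of 13 member probes. Counting was tested on simulated data. Alternatives covered background and dye normalization, scaling, filters, source table and cutoff. The number of arrays limits the precision.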

Additional observations from a re-analysis of the deposited data

Results flagged for a closer look

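IL6R had ratios of opposite sign in the cell lines, which is why it is listed here. Its log2 ratio of SET7/9 siRNA to negative control siRNA was 0.34 (error 0.29) in MKN74 and -0.065 (error 0.27) in MKN45, a difference of -0.40 with a combined error of 0.40. Neither ratio passed the cutoff and the MKN45 value lay within its error of 0. Without dye normalization both were below 0, at -0.20 and -0.50. Each line had 1 array, so the difference was not tested.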

How the results depend on the processing

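No paired analysis was possible because each cell line had 1 array. Of 60 recounts of the 8 counts of member probes, 40 stayed within 1.5 times of the main count and 20 did not. The count of probes at least 1.5-fold higher in MKN74, 2 in the main processing, was 1 with normexp and loess, 1 without dye normalization (an alternative chosen after seeing the data) and 0 at a 2-fold cutoff. The count of higher probes in MKN45, 1 in the main processing, was 0 in each of these, 0 with an error-model p under 0.01 and 2 without the filter. In both lines it went from 1 to 0 with normexp and loess, without dye normalization, with an error-model p under 0.01 and at a 2-fold cutoff. Lower probes, 0 in each main count, became 3 in MKN74, 1 in MKN45 and 1 in both lines without dye normalization, and 1 in MKN45 without the filter. Of control differences, the 2 higher in MKN45 became 5 with 75th percentile scaling, 1 with normexp, loess and Aquantile and 1 with Cy3 above background in both lines, where the 5 lower became 2. The IL11 ratio in MKN45 reversed to -0.14 without dye normalization, and 5 of 20 member ratios had another sign there. In that setting the median of probes with Cy3 signal under 50 was -0.44 in each line. The cause of these changes was not tested. With normexp and loess 0 of 20 ratios changed sign. Signals near background limit IL6, OSMR, IL6R, the second LIF probe and, in MKN74, the first IL1RN probe. In MKN45 they also limit IL1A, IL1B and IL11. Control signals of IL1A (44.3) and the second IL1RN probe (40.3) in MKN74, and of the first IL1RN probe (44.2) in MKN45, were also under 50. Having 1 array per line limits every value.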

Other observations

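In control cells, 3 of 10 IL-1 processing genes were above background in 1 line only (CASP1, GSDMD and PYCARD), 3 in both (CASP4, CASP5 and CASP8) and 4 in neither (AIM2, NLRC4, NLRP1 and NLRP3). Of 12 IL-1 family receptors and antagonists, 4 were above background in 1 line only, 5 in both and 3 in neither. Over all probes above background in at least 1 line, 19.4% were so in 1 line only, a share of probes and not of genes. The genes given with values here were named after these were seen. PYCARD, the inflammasome adaptor, read 1606 in control cells and 1619 with SET7/9 siRNA in MKN45 and was not above background in MKN74. GSDMD, the pore-forming target of caspase-1, read 558.8 and 498.5 in MKN45 and was not above background in MKN74 either. CASP1 was above background in MKN74 alone, as were IL1A and IL1B. IL1R2, the decoy receptor that binds IL-1 without signalling, read 385.2 and 318.1 in MKN45 and was not above background in MKN74. IL1RAP was above background at both probes in both lines, and IL1R1 at 1 of its 2 probes in both channels of both lines, at 51.9 and 44.2 in MKN74 and 36.2 and 25.6 in MKN45.

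IL6ST, the gp130 subunit that all IL-6 family members here share, had 7 probes. Their log2 ratios, with both channels above background, lay between -0.32 and 0.46 in MKN74 and between -0.14 and 0.49 in MKN45, none past the cutoff. IL11RA, the receptor of IL-11, read 153.6 and 158.4 in MKN74 and 37.5 and 36.5 in MKN45, log2 ratios of 0.044 (error 0.21) and -0.038 (error 0.26). LIFR, past the cutoff with 1 channel above background, read 22.7 in control cells and 2.02, not above background, with SET7/9 siRNA in MKN74, and 13.0, not above background, and 19.8 in MKN45.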
